A study of Mus musculus with 9 samples.

Results

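The genes described here are 52 cell cycle genes that cells use to copy their DNA and to divide. Each name on the list was looked up by gene symbol, and all 52 were found among the 24421 genes counted in this series. Of these, 25 act at the start of the cycle and during DNA replication (called G1/S members below) and 27 act from late replication through division (G2/M members). The question was whether their RNA differed between tumors treated with R-propranolol and tumors given vehicle.

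A dividing cell first loads the MCM helicase onto replication origins, then fires those origins, copies its DNA, and finally separates the copies on a spindle. E2F transcription factors drive the early genes of this program as their repressor Rb is released. The late genes are held down in resting cells by the DREAM complex and are later driven by B-Myb (Mybl2) and Foxm1. The early, or proliferating, phase of infantile hemangioma is one of rapid endothelial cell division.

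RNA was sequenced from 5 tumors treated with R-propranolol and 4 vehicle tumors, with 1 library per tumor. All were allografts of bEnd.3, a line of mouse endothelial cells that were transformed by the polyoma middle T antigen, grown in the right flank of male athymic Nu/Nu nude mice. R-propranolol is the stereoisomer of propranolol that lacks beta blockade. It was injected into the peritoneum at 6 mg/kg per day, 5 times a week, from the second day after the cells, and vehicle was ethanol in buffered saline. Ages of the mice are not stated in the material used here. As a model, these tumors come from 1 transformed cell line whose viral oncogene drives growth, in hosts that lack a thymus, and since host and graft are both mouse the reads of host tissue are counted with those of the graft. Vehicle replicates 1 and 2 share a number in their titles, and nothing states which tumors came from which mouse, so the p-values measure only the spread between these samples.

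Depth was similar in both groups, with 21084749 to 27852630 counts over genes in R-propranolol tumors and 20599904 to 24949010 in vehicle tumors. Values below are CPM, counts scaled to library sizes that TMM had adjusted to a common level. All 12 endothelial markers looked up, such as Pecam1 and Cdh5, were detected in each of the 9 tumors. R-propranolol replicate 5 stood apart: its 16 skeletal muscle markers, among them Acta1 and Ckm, summed to 180601 CPM and none was at 0, against 7.64 to 430 CPM in the other 8 tumors, where 1 to 7 of the 16 were at 0. Every comparison is therefore given with all 9 tumors and again without replicate 5.

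No member of the list passed the test. In the comparison of all 9 tumors by edgeR's quasi-likelihood test, 0 of 52 members had an adjusted p under 0.05, with adjusted p values from 0.876 to 0.986, and 0 genes did so among all 13901 tested. At an unadjusted p under 0.05 there were again 0 members, where 2.3% of all tested genes passed. DESeq2 and limma-voom each gave 1 of 52 members (E2f2) at that level, and 0 after adjustment. The 2.3% is edgeR's share, and the shares over all genes of these other methods are not given here. Without R-propranolol replicate 5, 0 of 52 members passed with or without adjustment in edgeR's test, where 3.78% of 13743 genes passed without adjustment (2.65% higher and 1.13% lower). In a bulk tumor, fewer dividing cells and less RNA per dividing cell cannot be told apart, and this holds for each value below.

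With all tumors nearly every estimate lay below 0, and without replicate 5 the estimates lay close to 0. With 9 tumors, 51 of 52 members had a log2 fold change below 0, where 45.7% of all tested genes did, and the members' median was -0.30 against 0.03 over all genes. The estimates ran from -0.61 for E2f2 to 0.02 for Ccne2. With replicate 5 left out, 41 of 52 members lay below 0 (46.3% of all genes did) and the median was -0.06 against 0.01 over all genes. The range was then -0.47 for E2f2 to 0.13 for Ccne2. For 11 members, among them Cdk1, Foxm1, Ube2c, Aurkb and Prc1, the estimate was above 0 once this tumor was left out. Members of one program are not independent of each other, so these counts describe the list and carry no test.

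The precision differed between both comparisons. The median standard error of a member's log2 fold change was 0.41 with 9 tumors and 0.13 with 8. With 9 tumors, the 95% interval lay within a 2-fold change in either direction for 7 of 52 members. Without replicate 5 it did so for all 52, with the lowest bound at -0.99 (E2f2) and the highest at 0.63 (Ccne2). The CPM ranges of R-propranolol and vehicle tumors overlapped for every member in both comparisons, where 1.26% of all genes with 9 tumors (0.633% higher, 0.626% lower) and 2.92% with 8 (1.83% higher, 1.09% lower) did not overlap.

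**Figure D1:**
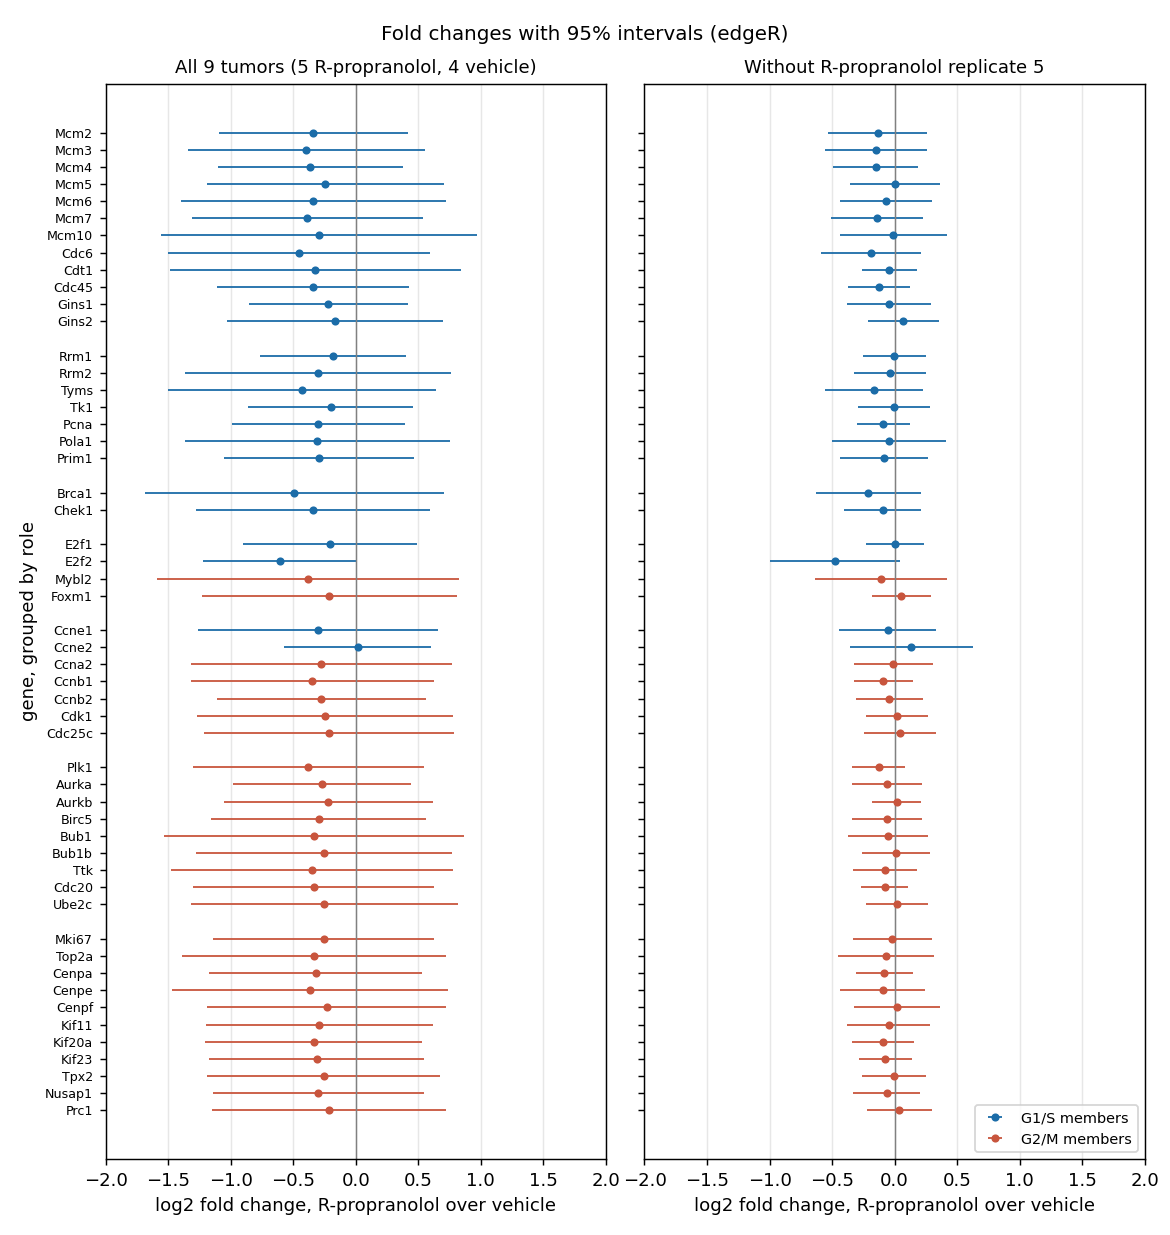
Log2 fold change of each of the 52 members, R-propranolol over vehicle (horizontal axis), from edgeR's quasi-likelihood fit, with the 95% interval as a bar, for all 9 tumors (left) and without R-propranolol replicate 5 (right). Blue marks 25 G1/S members and red 27 G2/M members; 51 points lie below 0 on the left and 41 on the right, where all 52 intervals stay within a 2-fold change.

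Replicate 5 of the R-propranolol group had the lowest level of all 9 tumors for 52 of 52 members, where it was the lowest for 42.1% of all tested genes. The members summed to 807 CPM in this tumor, 3092 to 4373 CPM in R-propranolol replicates 1 to 4, and 3532 to 4088 CPM in vehicle tumors. As a share of raw gene counts, which no scaling factor touches, they took 0.0575% in replicate 5, 0.298% to 0.457% in replicates 1 to 4, and 0.367% to 0.430% in vehicle tumors. Skeletal muscle markers took 12.9% of the counts of that tumor.

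How low members lay in this tumor differed from gene to gene. A member's level in replicate 5 was 20.2% (median) of its mean in R-propranolol replicates 1 to 4, where the median of all tested genes was 95.3%. The lowest were Mcm10 at 9.61%, which helps to start the helicase, Bub1 at 10.5%, a kinase of the spindle checkpoint, Cdt1 at 11.1%, which loads the MCM ring, and Brca1 at 11.3%, a repair protein. The least reduced were the ribonucleotide reductase subunit Rrm1 (41.7%), the GINS subunit Gins1 (41.8%), E2f2 (56.0%) and cyclin E2 (Ccne2, 60.3%). All of those are G1/S members, and G2/M members ran from 10.5% to 32.5%. By role, the medians lay between 15.9% for the 2 checkpoint and repair genes and 31.2% for the 7 genes of DNA synthesis and nucleotide supply.

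**Figure D2:**
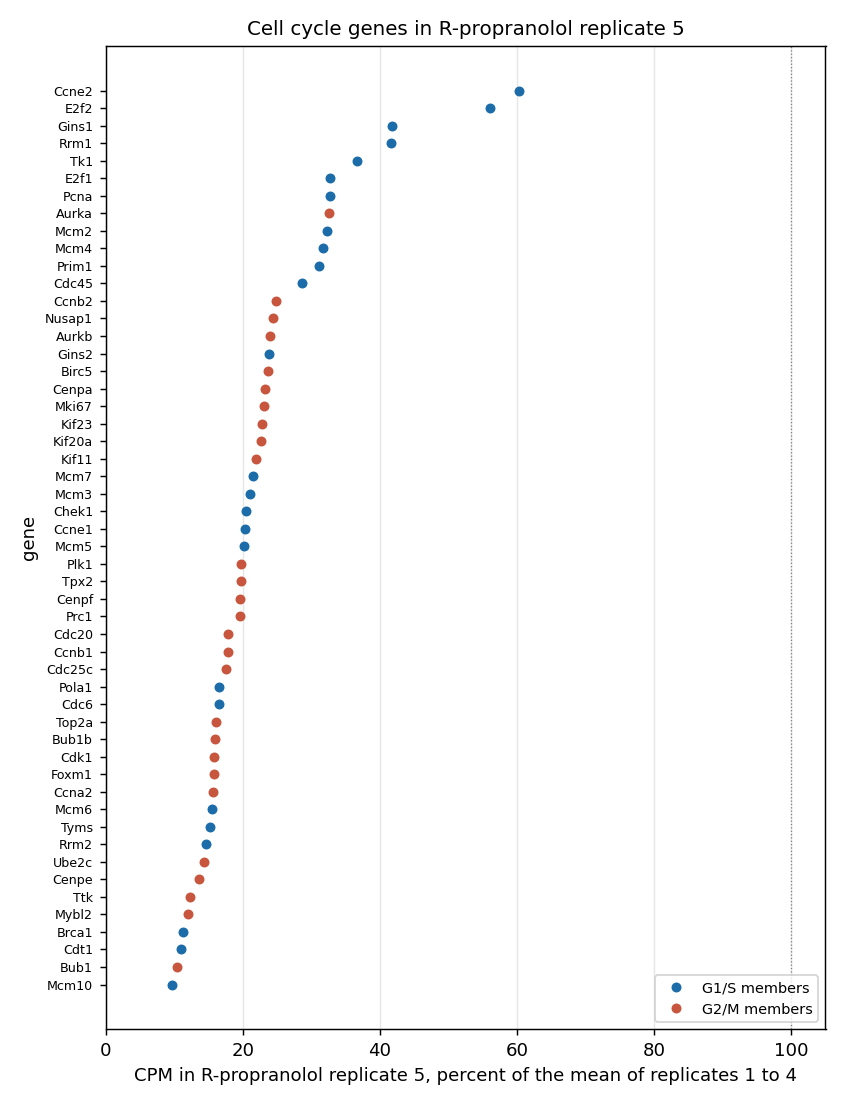
Level of each member in R-propranolol replicate 5 as a percent of its mean CPM in R-propranolol replicates 1 to 4 (horizontal axis, the dotted line marks 100). Points run from 9.61% for Mcm10 to 60.3% for Ccne2, with G1/S members in blue at both ends and G2/M members in red from 10.5% to 32.5%.

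Markers of several cell types moved with these levels in replicate 5. The 9 adipocyte markers summed to 4612 CPM there, against 47.6 to 370 CPM in the other 8 tumors. The 10 macrophage markers summed to 4124 CPM, against 743 to 3496 CPM, and 6 of the 10 were highest in replicate 5 and 0 lowest. The 8 mural cell markers summed to 8980 CPM, against 117 to 430 CPM, but 8693 CPM of this was Des (desmin, also a muscle gene), and while 5 of the 8 were highest in replicate 5, Pdgfrb was lowest there. The sum of the 9 neutrophil markers went the other way, with 42.3 CPM in replicate 5, against 102 to 338 CPM. Of these 9, 5 were lowest in replicate 5 and 1 was highest there. Endothelial markers summed to 917 CPM in replicate 5, 514 to 1127 CPM in R-propranolol replicates 1 to 4 and 497 to 655 CPM in vehicle tumors. Of the 12, Kdr, Tek, Vwf and Cldn5 were highest in replicate 5, and the receptor Tie1 was lowest there, at 60.0 CPM. Set against that sum, the members reached a ratio of 0.880 in replicate 5, 2.74 to 8.51 in replicates 1 to 4 and 6.12 to 7.10 in vehicle tumors. Host vessels carry the same endothelial markers as bEnd.3 cells, and the part that tissue makeup has in the members' levels was not tested.

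Among the remaining 8 tumors the members varied little. The highest tumor was 1.24 to 2.34 times the lowest, with a median ratio of 1.45, where the median of all genes was 1.47. R-propranolol replicate 2 was the lowest of the 8 for 39 of 52 members and the lowest for 24.1% of all genes. R-propranolol replicate 4 was the highest for 20 members (13.2% of all genes), and vehicle replicates 4 and 1 for 13 and 10 (12.8% and 10.6% of all genes). R-propranolol replicate 2 was the highest for 0 members and for 29.0% of all genes. Relative to the vehicle mean, the median member stood at 0.07, -0.29, -0.15 and 0.15 on the log2 scale in R-propranolol replicates 1 to 4, and at 0.03, -0.13, 0.05 and 0.09 in vehicle replicates 1 to 4. Treated tumors thus held both the highest and the lowest of the 8 medians. R-propranolol replicate 2 also had the highest of the 8 sums of fibroblast (31849 CPM), macrophage (3496 CPM) and endothelial (1127 CPM) markers, whose part was not tested.

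**Figure D3:**
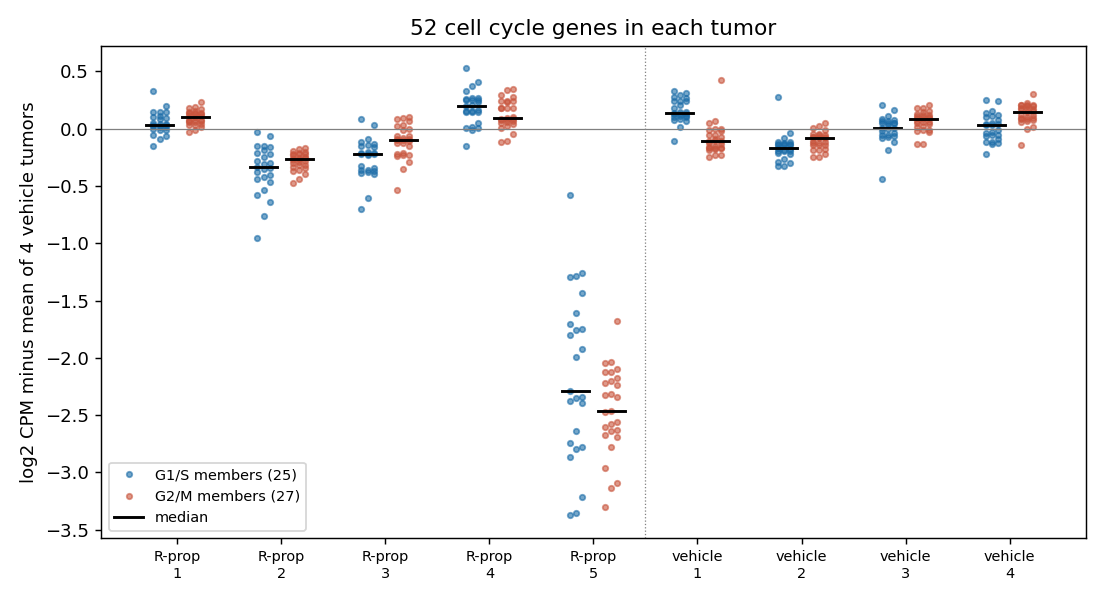
Log2 CPM of every member in every tumor, minus the mean of the 4 vehicle tumors for that gene (vertical axis), with R-propranolol tumors left of the dotted line and vehicle tumors right of it. Blue points are 25 G1/S members, red points 27 G2/M members and bars their medians; R-propranolol replicate 5 has medians of -2.29 and -2.46 while the medians of the other 8 tumors lie between -0.34 and 0.20.

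The usual markers of proliferation show the same layout gene by gene. Mki67, the antigen used to stain cycling cells (chromosome 7, 135689784 to 135716361 of GRCm38), had 257, 195, 206, 294 and 55.0 CPM in R-propranolol tumors 1 to 5, and 223, 226, 262 and 252 CPM in vehicle tumors. Treated tumors thus included the highest and the lowest value, and the vehicle values lay between them. The means were 201 ± 91.0 CPM (SD, n = 5) in R-propranolol tumors and 241 ± 19.3 CPM (SD, n = 4) in vehicle tumors, a log2 fold change of -0.26 (SE 0.39). Without replicate 5 the R-propranolol mean was 238 ± 45.9 CPM (SD, n = 4) and the log2 fold change -0.02 (SE 0.14). Exact permutation tests on mean log2 CPM, two-sided, gave p = 0.571 with 9 tumors and p = 0.857 with 8, where these designs allow 0.00794 and 0.0286 at the least.

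Top2a, the topoisomerase that untangles replicated chromosomes (chromosome 11, 98992943 to 99024189), had 356, 241, 280, 384 and 50.9 CPM in R-propranolol tumors, against 304, 275, 378 and 363 CPM in vehicle tumors. It was the most abundant member by CPM. Replicate 4 of the treated group lay above every vehicle tumor, replicates 1 and 3 lay inside the vehicle range, and replicates 2 and 5 lay below it. The log2 fold change was -0.33 (SE 0.47) with 9 tumors and -0.07 (SE 0.17) without replicate 5 (exact permutation p = 0.460 and 0.686).

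**Figure D4:**
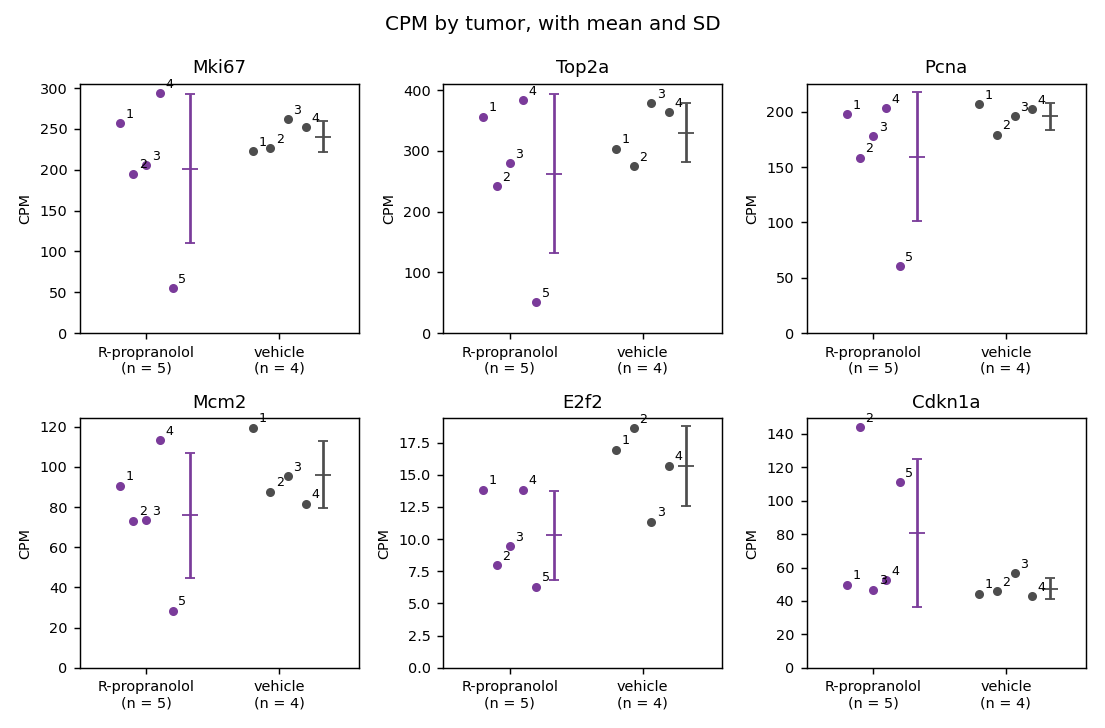
CPM of Mki67, Top2a, Pcna, Mcm2, E2f2 and the Cdk inhibitor gene Cdkn1a (vertical axes, from 0) per tumor (points, labelled with the replicate number) and the mean and SD (bars) of 5 R-propranolol tumors and 4 vehicle tumors. The ranges of both groups overlap in each panel, with R-propranolol replicate 5 lowest for the 5 members and replicates 2 and 5 highest for Cdkn1a.

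Origin licensing and helicase genes (12 members) all had a log2 fold change below 0 with 9 tumors, with a median of -0.34, and 10 of 12 did without replicate 5, with a median of -0.10. Mcm2, a subunit of the helicase ring (chromosome 6, 88883474 to 88898780), had 90.7, 73.3, 73.5, 113 and 28.3 CPM in R-propranolol tumors, against 120, 87.7, 95.5 and 81.7 CPM in vehicle tumors. Mcm3, its partner in the ring and the most abundant gene of this role, had 143, 94.9, 106, 158 and 26.3 CPM in R-propranolol tumors, against 163, 121, 145 and 127 CPM in vehicle tumors. For both genes, 3 treated tumors (replicates 2, 3 and 5) lay below every vehicle tumor and the other 2 did not. The log2 fold change of Mcm2 was -0.34 (SE 0.33) with 9 tumors and -0.13 (SE 0.17) with 8 (exact permutation p = 0.302 and 0.457).

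Mcm4, another ring subunit, had 96.8, 72.6, 75.9, 108 and 28.0 CPM in R-propranolol tumors, against 113, 86.9, 103 and 89.9 CPM in vehicle tumors. Cdc45, which joins the ring to form the working helicase, had 35.6, 27.2, 31.2, 34.5 and 9.18 CPM in R-propranolol tumors, against 37.7, 30.4, 36.0 and 35.7 CPM in vehicle tumors. Mcm4 had the smallest unadjusted p of this role with 9 tumors (0.296) and Cdc45 the smallest with 8 (0.293, both edgeR). Of the other members, Cdc6, which recruits the ring to origins, had the lowest estimate with 9 tumors at -0.45, and the GINS subunit Gins2 the highest at -0.17. Without replicate 5 these 2 genes again bounded the role, at -0.19 and 0.07. Of its 4097 exon bases, Gins2 shares 2758 with Gse1 on the other strand.

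The 7 genes of DNA synthesis and nucleotide supply lay below 0 in both comparisons, with medians of -0.30 and -0.05. Pcna, the sliding clamp that holds DNA polymerase on its template (chromosome 2, 132249162 to 132253314), had 198, 159, 178, 203 and 60.2 CPM in R-propranolol tumors, against 207, 179, 196 and 202 CPM in vehicle tumors. Replicates 1 and 4 lay inside the vehicle range and the other treated tumors below it. The log2 fold change was -0.30 (SE 0.30) with 9 tumors and -0.09 (SE 0.09) without replicate 5 (exact permutation p = 0.310 and 0.371). The other estimates with 9 tumors ran from -0.43 for thymidylate synthase (Tyms) to -0.18 for Rrm1. Without replicate 5 they ran from -0.16 for Tyms to -0.0032 for Rrm1, and those of Rrm2, Tk1, Pola1 and Prim1, the small reductase subunit, thymidine kinase and 2 subunits of polymerase alpha with primase, lay between.

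Checkpoint and repair were represented by Brca1, a protein of homologous recombination, and Chek1, the kinase that halts the cycle when replication forks stall. Brca1 had 39.1, 23.3, 30.7, 43.8 and 3.86 CPM in R-propranolol tumors, against 41.5, 35.7, 40.4 and 40.7 CPM in vehicle tumors. The vehicle tumors were tightly grouped, and treated tumors lay on both sides of them. Its log2 fold change was -0.49 (SE 0.53) with 9 tumors and -0.21 (SE 0.18) without replicate 5 (exact permutation p = 0.270 and 0.343). Chek1 had estimates of -0.34 and -0.10.

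Among the transcription regulators, E2f2 had the most negative estimate of all members in both comparisons. E2f2 is an activating E2F that Rb holds in check (chromosome 4, 136172394 to 136196057). It had 13.8, 7.96, 9.45, 13.9 and 6.32 CPM in R-propranolol tumors, against 16.96, 18.6, 11.35 and 15.7 CPM in vehicle tumors. Replicates 2, 3 and 5 of the treated group lay below every vehicle tumor, and replicates 1 and 4 lay above vehicle replicate 3 only. The means were 10.3 ± 3.43 CPM (SD, n = 5) in R-propranolol tumors and 15.7 ± 3.11 CPM (SD, n = 4) in vehicle tumors. The log2 fold change was -0.61 (SE 0.27), with an unadjusted p of 0.0533 and an adjusted p of 0.876 in edgeR's test, and without replicate 5 it was -0.47 with a 95% interval from -0.99 to 0.04.

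The estimate of E2f2 kept its sign under each setting tried. It is the most negative of the list in these same tumors, and the settings share most of them, so a kept sign is no separate support. Mki67, Top2a and Pcna also kept their sign when 1 of 9 tumors was left out, while Cdk1, Foxm1 and Ube2c did not. An exact permutation test on its mean log2 CPM gave p = 0.0635 with 9 tumors and p = 0.114 with 8. Over 19 settings that start from 9 tumors, some with 1 tumor left out or 2 summed, its log2 fold change ran from -0.79 to -0.47. The value of -0.47 is the fit without replicate 5. The unadjusted p ran from 0.0259 to 0.137, both ends from edgeR fits with 1 tumor left out, and the lowest adjusted p was 0.660. Over 18 settings that start from the 8 tumors, some with a further tumor left out, it ran from -0.60 to -0.34. The lowest adjusted p was 0.837, from an edgeR fit with a further tumor left out. E2f2 is also expressed in maturing red cells. Of 7 red cell markers, the defining globin genes Hba-a1, Hbb-bs and Hbb-bt are listed at 0 in every tumor, and the summed level of all 7 was 5.61 to 27.2 CPM in R-propranolol tumors and 4.22 to 15.1 CPM in vehicle tumors. Their part in the level of E2f2 was not tested.

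The other 3 regulators were closer to the middle of the list. Foxm1, the driver of late cycle genes, had 101, 80.1, 86.7, 109 and 14.9 CPM in R-propranolol tumors, against 94.6, 87.7, 88.8 and 91.6 CPM in vehicle tumors. Its estimate was -0.21 (SE 0.45) with 9 tumors and 0.05 (SE 0.10) without replicate 5 (exact permutation p = 0.802 and 0.714). Mybl2 had -0.39 and -0.11, and E2f1, the best known activating E2F, had -0.21 and -0.00024. The difference between E2f1 and E2f2 was not tested.

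Of the 7 cyclins and Cdk1 genes, 6 had an estimate below 0 with 9 tumors (median -0.27) and 4 without replicate 5 (median -0.01). Cdk1, the kinase that triggers mitosis (chromosome 10, 69335146 to 69352938), had 94.4, 70.9, 84.0, 87.1 and 13.3 CPM in R-propranolol tumors, against 79.6, 72.6, 88.3 and 91.6 CPM in vehicle tumors. Its log2 fold change was -0.25 (SE 0.45) with 9 tumors and 0.02 (SE 0.11) with 8 (exact permutation p = 0.730 and 0.886). Replicate 1 of the treated group was the highest of all 9 tumors, replicates 3 and 4 lay inside the vehicle range, and replicates 2 and 5 lay below it.

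Cyclin A2 (Ccna2), a partner of Cdk2 and Cdk1, had 103, 72.3, 92.5, 106 and 14.6 CPM in R-propranolol tumors, against 79.6, 89.7, 101 and 106 CPM in vehicle tumors. Cyclin B1 (Ccnb1), the main mitotic partner of Cdk1, had 83.8, 65.4, 75.9, 82.8 and 13.7 CPM in R-propranolol tumors, against 72.4, 83.0, 80.4 and 91.7 CPM in vehicle tumors. For both cyclins, replicates 2 and 5 lay below every vehicle tumor and the other 3 inside the vehicle range. Ccne2, which opens S phase with Cdk2, was the only member with an estimate above 0 with 9 tumors (0.02), and it had 8.26, 5.40, 5.9995, 9.47 and 4.39 CPM in R-propranolol tumors, against 7.19, 5.74, 5.79 and 7.83 CPM in vehicle tumors. Its sister Ccne1 had estimates of -0.30 and -0.05, cyclin B2 (Ccnb2) -0.27 and -0.04, and the Cdk1 activating phosphatase Cdc25c -0.22 and 0.04.

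All 9 genes of mitotic kinases, the spindle checkpoint and the anaphase-promoting complex lay below 0 with 9 tumors (median -0.30) and 6 did without replicate 5 (median -0.06). Plk1, a kinase needed to enter and leave mitosis, had 58.3, 47.3, 45.7, 54.3 and 10.1 CPM in R-propranolol tumors, against 53.1, 52.8, 59.3 and 59.2 CPM in vehicle tumors. Treated replicates 2, 3 and 5 lay below every vehicle tumor and the other 2 inside the vehicle range. Its estimate of -0.13 (SE 0.09) was the lowest of this role without replicate 5 (exact permutation p = 0.286). Ube2c, which feeds ubiquitin to the anaphase-promoting complex, had 115, 89.3, 110, 103 and 14.96 CPM in R-propranolol tumors, against 93.3, 94.0, 106 and 120 CPM in vehicle tumors, with estimates of -0.25 and 0.02.

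Ube2c shares 592 exon bases with the skeletal muscle gene Tnnc2 on the other strand, and how reads there were counted is not stated. Of the 9 tumors, Ube2c was lowest in the one with the high muscle markers. The checkpoint kinases Bub1, Bub1b and Ttk had estimates of -0.34, -0.25 and -0.35 with 9 tumors, and -0.05, 0.01 and -0.08 without replicate 5. The aurora kinases Aurka and Aurkb had -0.27 and -0.22, then -0.06 and 0.02. Birc5 (survivin), the partner of Aurkb, and Cdc20, the activator of the anaphase-promoting complex, had -0.30 and -0.34, then -0.06 and -0.08.

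The 11 genes of chromosomes, centromeres and the spindle, Mki67 and Top2a among them, also lay below 0 with 9 tumors (median -0.30), and 9 did without replicate 5 (median -0.06). Kif20a, a kinesin of late division, had 66.8, 50.7, 53.6, 66.4 and 13.4 CPM in R-propranolol tumors, against 58.5, 61.4, 65.7 and 68.0 CPM in vehicle tumors. It shares 1271 exon bases with Cdc23 on the other strand. The estimates of the role ran from -0.37 for the kinesin Cenpe to -0.21 for the spindle midzone protein Prc1 with 9 tumors, and from -0.10 to 0.04 for the same 2 genes without replicate 5. The centromere proteins Cenpa and Cenpf, the spindle motors Kif11 and Kif23, and the spindle proteins Tpx2 and Nusap1 lay between these bounds.

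Early and late members did not always go together within a tumor. The median G1/S member minus the median G2/M member was -0.07, -0.07, -0.12, 0.11 and 0.17 on the log2 scale in R-propranolol replicates 1 to 5, and 0.25, -0.08, -0.08 and -0.12 in vehicle tumors, each relative to the vehicle mean. Vehicle replicate 1 thus had the most early-weighted profile of all tumors. Across both groups the values overlapped.

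The helicase ring and the mitotic cyclins are set side by side as examples of both classes. The median of Mcm2 to Mcm7 stood at 0.01, -0.43, -0.35, 0.25 and -2.32 in R-propranolol replicates 1 to 5, and at 0.25, -0.16, -0.03 and -0.09 in vehicle tumors. The median of Ccna2, Ccnb1, Ccnb2 and Cdk1 stood at 0.13, -0.27, 0.00, 0.05 and -2.60 in R-propranolol tumors, and at -0.20, -0.07, 0.10 and 0.18 in vehicle tumors. R-propranolol replicate 3 had low helicase genes with mitotic genes at the vehicle mean, and vehicle replicate 1 had the highest helicase genes of its group with the lowest mitotic genes. These gene sets were chosen by function and these tumors were singled out after their values were seen.

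**Figure D5:**
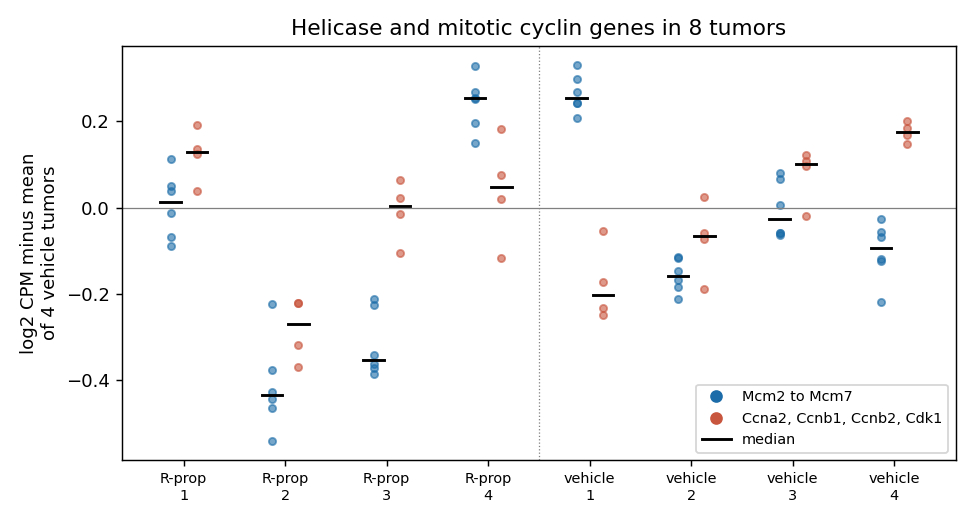
Log2 CPM of Mcm2 to Mcm7 (blue) and of Ccna2, Ccnb1, Ccnb2 and Cdk1 (red), minus the mean of the 4 vehicle tumors for each gene (vertical axis), in R-propranolol replicates 1 to 4 and 4 vehicle tumors, with bars for medians. In R-propranolol replicate 3 the blue median is at -0.35 and the red one at 0.00, and vehicle replicate 1 shows blue at 0.25 and red at -0.20.

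Promoters of the members differ in the elements they carry, in the way known for early and late genes. Promoter windows of 300 bases (250 before and 50 after the start, RefSeq, GRCm38.p6) were available for 42 of 52 members, 21 of each class. The CHR, an element bound by DREAM, was searched as TTTGAA or as the word TTCGAA, and it was in 16 of 21 G2/M members (76.2%), 4 of 21 G1/S members (19.0%) and 21.7% of all 27025 genes with a window. E2F sites were searched as any of 4 words, namely TTCCCGC, the word TTGGCGC, the word TTCGCGC, and the word TTGCCGC, and they were in 3 of 21 G2/M members (14.3%), 13 of 21 G1/S members (61.9%) and 10.9% of all genes. CCAAT, the site of NF-Y, was in 18 of 21 G2/M members (85.7%), 14 of 21 G1/S members (66.7%) and 41.1% of all genes. Both strands were searched, TTCGAA reads the same on both, the reverse of CCAAT can overlap TTGGCGC, and E2F words can overlap each other. A match is a run of letters and says nothing of binding in these tumors.

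Stretches from 4 promoters of each class show both layouts as examples. They are printed 5′ to 3′ on the strand of the gene, with each match to one of the motifs, on either strand, in capitals. The late genes come first, at chr10:69352939-69353022 (Cdk1, minus strand), chr4:118437353-118437438 (Cdc20, minus), chr11:99024205-99024294 (Top2a, minus) and chr7:135716440-135716529 (Mki67, minus), and the early genes follow, at chr8:75109339-75109438 (Mcm5, plus), chr1:128359731-128359820 (Mcm6, minus), chr7:102441600-102441689 (Rrm1, plus) and chrX:93632241-93632330 (Pola1, minus).
Cdk1: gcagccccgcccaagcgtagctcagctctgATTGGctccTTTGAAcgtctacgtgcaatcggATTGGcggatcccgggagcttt
Cdc20: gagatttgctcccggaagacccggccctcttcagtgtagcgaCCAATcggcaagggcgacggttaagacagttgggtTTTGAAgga
Top2a: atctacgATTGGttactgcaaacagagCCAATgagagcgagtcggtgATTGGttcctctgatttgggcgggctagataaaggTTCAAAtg
Mki67: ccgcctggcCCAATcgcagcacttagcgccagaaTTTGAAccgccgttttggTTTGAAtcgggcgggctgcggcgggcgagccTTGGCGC
Mcm5: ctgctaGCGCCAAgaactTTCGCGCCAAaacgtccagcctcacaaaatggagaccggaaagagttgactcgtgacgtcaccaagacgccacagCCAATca
Mcm6: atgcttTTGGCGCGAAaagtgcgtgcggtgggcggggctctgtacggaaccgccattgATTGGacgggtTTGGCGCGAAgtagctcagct
Rrm1: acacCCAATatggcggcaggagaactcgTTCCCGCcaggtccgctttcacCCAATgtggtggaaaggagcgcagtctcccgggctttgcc
Pola1: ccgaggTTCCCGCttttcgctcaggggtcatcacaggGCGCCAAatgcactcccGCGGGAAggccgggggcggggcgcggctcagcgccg

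Within these stretches, Cdk1 has a CHR between 2 CCAAT boxes, Cdc20 and Top2a have CCAAT boxes followed by a CHR, and Mki67 has 2 CHR matches and an E2F word as well. The full windows hold more matches: Cdk1 has a second CHR and 2 E2F words, Cdc20 a CCAAT box nearer the start than its CHR, and Top2a 3 further CHR matches upstream. In Mcm6 a run of overlapping E2F words occurs 2 times, and Mcm5, Rrm1 and Pola1 carry E2F words with no CHR in the stretch shown. Levels in R-propranolol replicate 5, relative to replicates 1 to 4, overlapped between both layouts. They were 15.8% for Cdk1, 17.9% for Cdc20, 16.1% for Top2a and 23.1% for Mki67, and 20.2% for Mcm5, 15.6% for Mcm6, 41.7% for Rrm1 and 16.6% for Pola1.

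Compared per length, members differed widely in level. Per kilobase of exon, Pcna had 76.8 CPM in R-propranolol replicates 1 to 4 and 81.8 CPM in vehicle tumors, the highest of the list. Cdc20 had 51.8 and Ube2c 40.2 CPM per kilobase in those treated tumors, against 54.7 and 39.7 in vehicle tumors. At the low end, Ccne2 had 2.08 and E2f2 2.31 CPM per kilobase in those treated tumors, against 1.90 and 3.21 in vehicle tumors. E2f2 thus is a gene of low level, with 95 to 392 counts in R-propranolol tumors and 286 to 483 in vehicle tumors.

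The wider cell cycle network was checked with 79 other genes. None passed an adjusted p under 0.05 in edgeR's test. With 9 tumors, 61 of 79 had an estimate below 0 and the median was -0.20. Without replicate 5, 41 of 78 did and the median was -0.01. At an unadjusted p under 0.05, 1 gene was higher with 9 tumors (2.01% of all genes were) and 0 lower (0.288% were), and with 8 tumors 0 passed in either direction.

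The groups of this network that work in the same steps as the members lay closest to them. Of 18 other replication genes, all 18 had an estimate below 0 with 9 tumors (median -0.27) and 11 without replicate 5 (median -0.04). Uhrf1, the most abundant of these, maintains DNA methylation at the fork and had estimates of -0.27 and 0.01. Of 22 other mitosis genes, 21 lay below 0 with 9 tumors (median -0.27) and 16 without replicate 5 (median -0.03), with the complex scaffold Anapc1 at -0.18 and -0.01. Among 6 genes of G1 cyclins and their kinases 5 lay below 0 with 9 tumors, and Cdk4 had estimates of -0.29 and -0.07. Of 16 pocket proteins, other E2Fs and DREAM subunits, 9 lay below 0 with 9 tumors and 9, not all of them those genes, without replicate 5, and the E2F partner Tfdp1 had -0.11 and 0.01. Of 10 genes that brake entry or belong to the Cdc25 family, 5 lay below 0 with 9 tumors and 1 without replicate 5. The antiproliferative gene Btg1 had -0.11 and 0.05. Ccng1 and Btg2 lay furthest above 0 with 9 tumors, at 2.34 and 0.77 (adjusted p = 0.876 for both, edgeR). Without replicate 5 they had 0.0026 and 0.42. Ccng1 had 1078 CPM in replicate 5 and 45.6 to 58.0 CPM in the other 8 tumors. Btg2 had 44.7 CPM in replicate 5, 14.4 to 26.8 CPM in the other treated tumors and 12.5 to 17.3 CPM in vehicle tumors.

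Of 7 Cdk inhibitors, 3 had an estimate below 0 with 9 tumors, and 2 of 6 did without replicate 5. Cdkn2a, whose products hold back Cdk4 and stabilize p53, had 221, 154, 249, 209 and 17.1 CPM in R-propranolol tumors, against 229, 250, 203 and 246 CPM in vehicle tumors, with estimates of -0.45 (SE 0.57) and -0.16 (SE 0.14). In replicate 5 it was at 8.22% of replicates 1 to 4, below every member of the list. Cdkn1c (p57) was the gene higher at an unadjusted p, with a log2 fold change of 4.42 (SE 1.79, adjusted p = 0.876 from edgeR's test). It had 780 counts in replicate 5, 8 to 75 counts in the other R-propranolol tumors and 5 to 24 counts in vehicle tumors, and without replicate 5 it had too few counts to be tested.

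Cdkn1a (p21), the inhibitor that p53 induces, was singled out after its values were seen. It had 49.8, 144, 46.8, 52.3 and 111 CPM in R-propranolol tumors, against 44.3, 45.7, 56.5 and 43.0 CPM in vehicle tumors. The 2 high values belong to replicates 2 and 5, which are the tumors with the lowest members, and the other 3 treated tumors lay inside the vehicle range. Its log2 fold change was 0.77 (SE 0.37, adjusted p = 0.876, edgeR) with 9 tumors and 0.62 (SE 0.36) with 8 (exact permutation p = 0.206 and 0.257). The same 2 tumors had the highest macrophage sums (3496 and 4124 CPM) and fibroblast sums (31849 and 16147 CPM) of all 9, and the part of those cells in the level of Cdkn1a was not tested.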

How the data were processed

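Libraries were prepared at a sequencing company with NEBNext Ultra reagents and read as pairs of 150 bases. The authors' processing notes list STAR, HTSeq and the mm10 build. The deposited values are raw counts per gene symbol, with no normalization. Versions, annotation and strand setting of the counting are not stated. Where exons of 2 genes overlap (15 of 52 members), it is thus not known whether the shared reads were counted or set aside as ambiguous. Rows of HTSeq totals (5) name no gene and were left out: 13.4% to 15.4% of reads were outside genes, 1.81% to 1.98% ambiguous, and 3.46% to 3.99% had several places, except 7.86% in R-propranolol replicate 5.

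Groups came from the treatment labels. Genes were filtered with filterByExpr (minimum count 10, minimum total 15), scaled by TMM and tested over the whole table with edgeR 4.0.16 in R 4.3.3 (quasi-likelihood test, Benjamini-Hochberg), on 9 tumors and on 8. CPM use TMM-scaled library sizes, and log2 CPM a prior count of 0.25. Exact permutation tests covered 126 splits of 9 tumors and 70 of 8, for single genes, two-sided and not adjusted. The test was checked on simulated counts. Alternatives were DESeq2 1.42.0 (test and size factors), limma 3.58.1 (voom), library size alone, scaling by endothelial markers, other filters, each tumor left out, vehicle replicates 1 and 2 summed, and a replicate block.

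The members, the other gene lists, the marker lists and the comparison without replicate 5 were chosen with earlier results of these data known. Genes given tumor by tumor are Mki67, Top2a, Cdk1, Pcna and Mcm2, and in each role the smallest p of either fit and the most abundant member. Of the other cell cycle genes, those with an unadjusted p under 0.05 and the most abundant of each group are named. Values for Ccne2, Cdkn1a, Ccng1 and Btg2 were added after they had been seen. Gene places and exon overlaps are from GENCODE M21 (GRCm38), and promoters from the RefSeq table. Tumor volumes, stainings and cell culture data were not analysed here.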

Additional observations from a re-analysis of the deposited data

Results flagged for a closer look

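In 13 of the 17 members given tumor by tumor, the lowest value of the R-propranolol group, that of replicate 5, was separated from the next one by a gap that, as a share of the group's range of log2 CPM, exceeded Dixon's 95% critical value. Its levels were 55.0 CPM for Mki67, 50.9 CPM for Top2a, 60.2 CPM for Pcna, 26.3 CPM for Mcm3, 9.18 CPM for Cdc45 and 3.86 CPM for Brca1. For Foxm1 it had 14.9 CPM, for Cdk1 13.3 CPM, for Ccna2 14.6 CPM and for Ccnb1 13.7 CPM. For Plk1 it had 10.1 CPM, for Ube2c 14.96 CPM and for Kif20a 13.4 CPM. The same held for the Cdk inhibitor Cdkn2a, outside the list, at 17.1 CPM. No other tumor exceeded that critical value, over 38 groups of values from 19 genes, and the value is larger for the 4 vehicle tumors than for the 5 treated ones, so the same share of the range can pass in treated tumors and not in vehicle tumors. Chance alone would single out a tumor in about 1 of 20 groups, but that rate does not apply to a tumor already known to stand apart. Genes of one program are also not independent, so these 14 describe one pattern in 1 tumor and are no test of it. How many of all tested genes exceed the same critical value in replicate 5 is not given here. That tumor was the lowest of the 9 for 42.1% of all tested genes and the highest for 36.5%. A wide gap in it is thus not shown to be particular to cell cycle genes. For Mcm2, Mcm4, E2f2 and Ccne2 the gap did not exceed the critical value, although replicate 5 was the lowest tumor for them too. The skeletal muscle, adipocyte and mural marker sums of the same tumor were the highest of the 9, and their part in this pattern was not tested.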

How the results depend on the processing

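With 9 tumors, the count of members at an adjusted p under 0.05 was 0 in edgeR under every alternative tried, and leaving out 1 tumor gave 0 to 0. At an unadjusted p the count was 1 with the DESeq2 test, limma-voom or a filter of 1 CPM in 4 tumors, and 0 to 1 with 1 tumor left out (1 without R-propranolol replicate 1, R-propranolol replicate 4 or vehicle replicate 3), each time E2f2. The count below 0 ran from 41 to 52 and the median from -0.44 to -0.06. Without R-propranolol replicate 5, leaving out a further tumor gave 0 to 2 members at an unadjusted p (2, E2f2 and Mcm7, without R-propranolol replicate 4), 23 to 49 below 0 and medians of -0.13 to 0.02. The value of 23 came without R-propranolol replicate 2, so the direction of the list rests on that tumor once replicate 5 is left out. For the counts at an unadjusted p, the shares of all genes in the same refits are not given here. In the main edgeR fits these shares were 2.3% with 9 tumors and 3.78% without replicate 5. Among the member calls, the lowest adjusted p was 0.660 starting from 9 tumors and 0.837 starting from 8 (edgeR).

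With library size alone or endothelial scaling in place of TMM, the median of all genes moved to -0.10 and -0.24, the members' median was -0.37 and -0.46, and 52 lay below 0. Without replicate 5 the medians of all genes were -0.04 and -0.17, those of the members -0.11 and -0.19, with 49 and 51 below 0. Not every member was followed singly as each tumor was left out. Of those that were, Cdk1, Foxm1 and Ube2c changed sign, with ranges of -0.38 to 0.018, -0.37 to 0.054 and -0.38 to 0.017. The upper ends are without R-propranolol replicate 5. Of the members not followed, Mcm5, Gins2, Cdc25c, Aurkb, Bub1b, Cenpf and Prc1 also went from below to above 0 without that replicate. With a replicate block, R-propranolol replicate 5 has no partner and drops out of the difference. Cdk1, Foxm1 and Ube2c then had 0.017, 0.045 and 0.019, and 41 members lay below 0 with a median of -0.06 and 0 calls. Deviations of same-numbered tumors from their group means had r from -0.64 to 0.53 over 4 pairs. These values cannot settle whether tumors were paired, since the treated mean includes replicate 5. Nothing states that they were, and the numbers were not taken as pairs. Depth did not limit the members much, since the lowest count in any tumor was 33, while 5 tumors against 4 limit every interval.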
